A study of Sus scrofa with 9 samples.

Results

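The ectodysplasin pathway genes were followed through the cap, early bell and late bell stages of the miniature pig deciduous molar. The genes were taken by symbol: EDA, EDAR, EDARADD, EDA2R, TRAF6, TNFRSF19 and NFKBIA. Of these 7 symbols, 6 had a row among the 34580 rows of the deposited table, and EDA2R was not analysed here. All 6 were kept by the filter against low values, an FPKM (fragments per kilobase of transcript, scaled to the mapped fragments of the library) of at least 1 in at least 2 libraries, as were 19618 rows in all.

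Ectodysplasin, the product of EDA, is a membrane-bound ligand of the tumour necrosis factor (TNF) family that furin-type proteases can release. It binds the receptor EDAR on ectodermal cells, the receptor recruits the adaptor EDARADD and a TRAF6 complex, and the IKK kinases then mark the inhibitor encoded by NFKBIA for destruction, which lets NF-κB enter the nucleus. Loss of the pathway in mammals causes hypohidrotic ectodermal dysplasia, with missing and cone-shaped teeth, and EDAR is known from the enamel knots of the tooth germ, the epithelial signalling centres that shape the cusps.

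Total RNA of the mandibular deciduous molar (Dm3) of miniature pig fetuses was depleted of rRNA and sequenced at embryonic day 40 (E40, cap stage), day 50 (E50, early bell stage) and day 60 (E60, late bell stage). Each stage had 3 libraries. No treatment of the fetuses is given, and the sows had been anesthetized with ketamine and xylazine before cesarean section. The breed line, and whether a library held 1 germ or several, are not given in the sources used here. The labels do not say that libraries came from separate animals, so the p-values measure only the spread between these libraries.

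Whole germs were sequenced, so epithelium and mesenchyme were measured together, and fewer cells of a type cannot be told apart from less RNA per cell. Keratin and epithelial genes were present in every library, with a summed FPKM of 1351 to 5790.5 over 10 tested dental epithelium markers, among them KRT5 and KRT14, while CDH1 was listed at 0 throughout. The marker sums moved with the stage and the set of libraries. The dental mesenchyme markers (10 tested) summed to 1480.3 to 2257 FPKM at E40, 4958 to 5519 at E50 and 1194 to 4604 at E60, blood markers to 231 to 391, 730 to 1027 and 100.5 to 676 FPKM, and endothelial markers to 22.7 to 26.7, 59.7 to 62.2 and 21.5 to 69.0 FPKM. The part of these shifts in the results was not tested. Genes of the enamel and dentin matrix such as AMBN, AMEL and DSPP summed to 15.1 to 25.9 FPKM at E40 and E50 and to 18745, 3575 and 8615 FPKM in E60 libraries 1, 2 and 3, so each E60 library carried the mark of the secretory stage. Muscle genes summed to 58.1 to 90.7 FPKM at E40 and to 6.19 to 13.7 FPKM later.

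The libraries fell into a deep and a shallow set that crossed the stages. The 3 E50 libraries and E60 library 1 held 14362175 to 16674237 recovered reads, and the 3 E40 libraries and E60 libraries 2 and 3 held 938477 to 1760334. Across genes, the Pearson r of log2 values was 0.959 to 0.983 within the deep set, 0.743 to 0.838 within the shallow set and 0.301 to 0.609 between the sets. A single uncharacterised locus, LOC102158401, held 22.3 to 40.6% of the reads of the shallow libraries and at most 0.576% of the reads of the deep ones. All E40 libraries are shallow and all E50 libraries deep, so between E40 and E50 the stage cannot be told apart from the set. Comparisons are given over all 9 libraries, and many also without E60 library 1 or after median-ratio scaling. In this scaling each library is divided by the median, over 14110 genes, of its ratio to the geometric mean of all libraries. Without E60 library 1 all E60 libraries are shallow and all E50 libraries deep. Between E50 and E60 the stage then cannot be told apart from the set either. The median log2 fold change of all tested genes was 0.55 from E40 to E50, −0.64 from E50 to E60 and −0.22 from E40 to E60 as deposited, and −0.09, 0.08 and −0.12 after the scaling.

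EDA, the ligand, stood at 3.17, 4.53 and 3.15 FPKM in E40 libraries 1, 2 and 3, at 5.83, 5.79 and 5.60 FPKM at E50, and at 3.26, 1.15 and 1.13 FPKM at E60. The E50 libraries were highest and did not overlap with either other stage, and the 2 shallow E60 libraries were lowest of all. These values rested on 15 to 24 reads per library at E40, 406 to 487 at E50, 265 in E60 library 1, and 8 and 10 in E60 libraries 2 and 3. The stage means were 3.61 ± 0.790, 5.74 ± 0.121 and 1.84 ± 1.22 FPKM (SD, n = 3). The table has 1 row for EDA, so its splice forms were not told apart.

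After median-ratio scaling, EDA was at 4.001, 5.11 and 3.04 scaled FPKM at E40, at 3.997, 4.26 and 3.86 at E50, and at 2.49, 2.24 and 1.32 at E60. On this scale the E40 and E50 libraries overlapped, and each E60 library, deep or shallow, lay below every earlier library. The log2 fold change of EDA between E50 and E60 was −1.76 ± 0.51 (SE), with an adjusted p of 0.164 from limma with Benjamini-Hochberg adjustment, which missed the threshold of 0.05. Without E60 library 1 it was −2.24 ± 0.31, with an adjusted p of 0.00044, and with the scaling over all 9 libraries it was −1.01 ± 0.37, with an adjusted p of 0.202. From E40 to E60 it was −1.08 ± 0.51 (adjusted p = 0.294), and −1.56 ± 0.31 (adjusted p = 0.0264) without E60 library 1. After scaling it was −0.99 ± 0.37 (limma, adjusted p = 0.202) over all 9 libraries. In the 8 libraries without E60 library 1 it was −1.16 ± 0.35 (limma, adjusted p = 0.117) after scaling, so the call was lost. From E40 to E50 it was 0.67 ± 0.51 (adjusted p = 0.291) as deposited and 0.02 ± 0.37 (adjusted p = 0.963) after scaling.

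**Figure D1:**
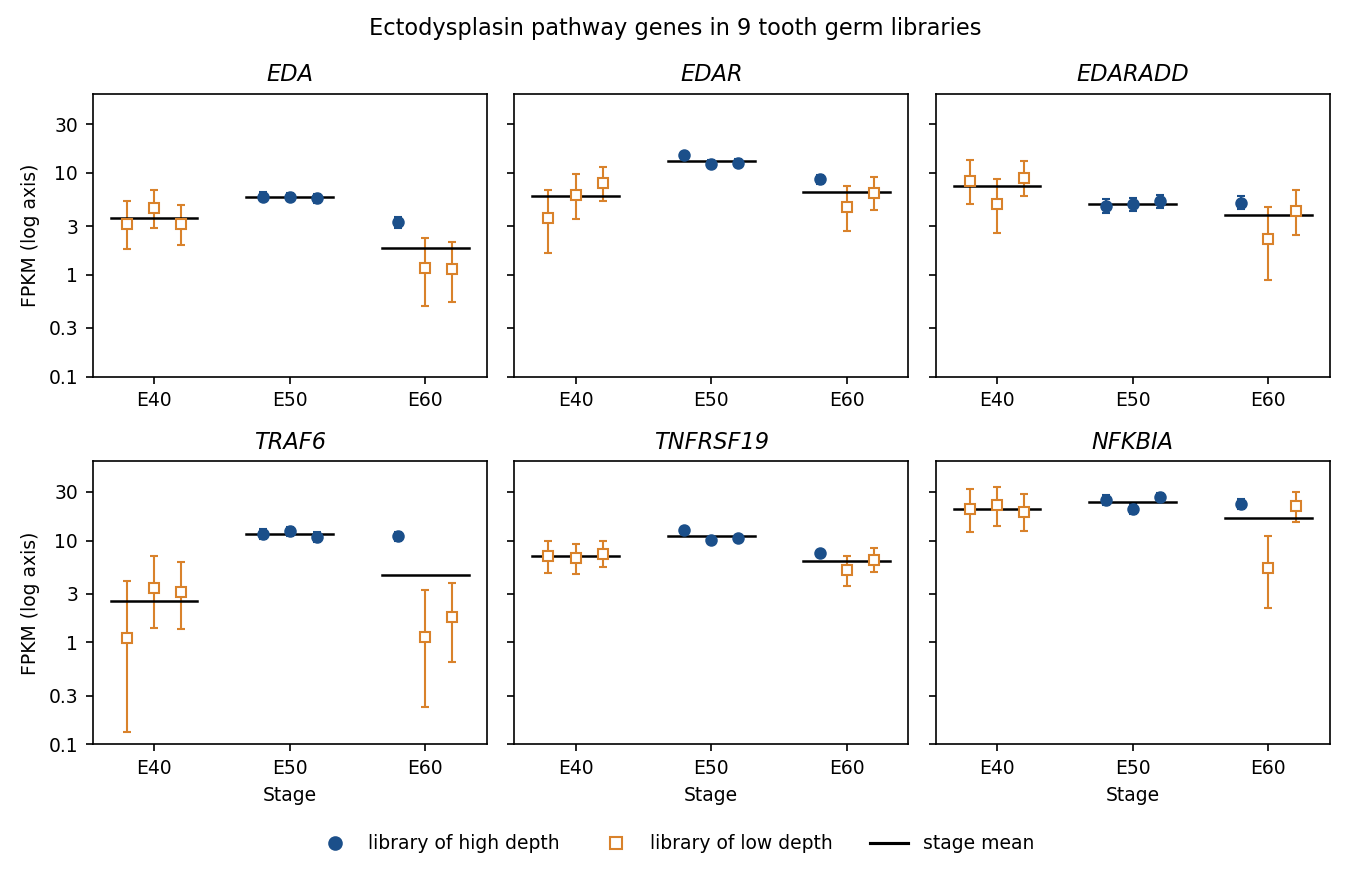
FPKM (log axis) of the 6 listed genes in each library by stage, with filled circles for the 4 deep libraries, open squares for the 5 shallow ones, bars for the 95% Poisson interval of the reads and lines for the stage mean. TRAF6 followed the set of libraries, at 10.8 to 12.4 FPKM in the deep set and 1.10 to 3.44 FPKM in the shallow one, and EDA was lowest in the 2 shallow E60 libraries.

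EDAR, the ectodysplasin receptor, stood at 3.602, 6.07 and 7.95 FPKM at E40, on 9, 17 and 28 reads. At E50 it was at 14.9, 12.2 and 12.5 FPKM, on 480 to 580 reads, and at E60 at 8.59, 4.62 and 6.40 FPKM, on 369, 17 and 30 reads. Every E50 library lay above every library of the other stages, while E40 and E60 overlapped. The sets did not overlap either, with the 4 deep libraries at 8.59 FPKM or more and the 5 shallow ones at 7.95 FPKM or less. The stage means were 5.87 ± 2.18, 13.2 ± 1.46 and 6.54 ± 1.99 FPKM (SD, n = 3). From E40 to E50 EDAR rose by a log2 fold change of 1.22 ± 0.42 (limma, adjusted p = 0.0452), past both limits. In simulated data with these depths the test made more false calls between E40 and E50 than its adjusted p allows, so a value this close to 0.05 is weak. These limits were an adjusted p below 0.05 together with a log2 change of 1 or more, up or down.

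EDAR and TRAF6 were the 2 of 6 genes past the limits from E40 to E50, and both were higher. Over all genes 38.6% were past the limits in this comparison, 16.8% higher and 21.8% lower, so 2 of 6 was near the background. Without E60 library 1 the same 2 genes were past the limits, with adjusted p of 0.0109 and 0.00215, against 54.6% of all genes. The call on EDAR was lost, with adjusted p between 0.0608 and 0.144, when E40 library 1 or 2, any E50 library or E60 library 3 was left out. After median-ratio scaling EDAR was at 4.55, 6.86 and 7.68 scaled FPKM at E40, at 10.19, 8.94 and 8.65 at E50, and at 6.56, 9.03 and 7.53 at E60. The E40 and E50 libraries still did not overlap, but the log2 fold change was 0.56 ± 0.27, with an adjusted p of 0.127. Between E50 and E60 the log2 fold change of EDAR was −1.04 ± 0.42 (adjusted p = 0.164), −1.26 ± 0.36 (adjusted p = 0.0156) without E60 library 1, and −0.27 ± 0.27 (adjusted p = 0.537) after scaling. From E40 to E60 it was 0.18 ± 0.42 (adjusted p = 0.855).

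TNFRSF19 (TROY), a receptor of the same family that is close to EDAR in sequence and can also signal through TRAF6, stood at 7.06, 6.68 and 7.43 FPKM at E40, at 12.8, 10.24 and 10.6 FPKM at E50 and at 7.49, 5.09 and 6.50 FPKM at E60. As for EDAR, the E50 libraries lay above all others, and the stage means were 7.06 ± 0.375, 11.2 ± 1.38 and 6.36 ± 1.21 FPKM (SD, n = 3). Deep E60 library 1, at 7.49 FPKM, also lay just above the highest shallow library, at 7.43 FPKM, so the sets did not overlap. Its log2 fold changes of 0.65 ± 0.33 from E40 to E50 (adjusted p = 0.138), −0.82 ± 0.33 from E50 to E60 (adjusted p = 0.164) and −0.16 ± 0.33 from E40 to E60 (adjusted p = 0.831) did not pass. Without E60 library 1 the value from E50 to E60 was −0.94 ± 0.25, with an adjusted p of 0.0108, short of the limit on fold change. After scaling the stage means came to 7.88, 7.86 and 7.76 scaled FPKM, and the log2 fold changes lay between −0.05 and 0.00.

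EDARADD, the adaptor that binds EDAR through its death domain, had another course. It stood at 8.39, 4.99 and 8.92 FPKM at E40, at 4.71, 4.93 and 5.24 FPKM at E50 and at 5.10, 2.22 and 4.22 FPKM at E60. E40 libraries 1 and 3 were the highest, and E40 library 2 lay within the E50 range. The reads were 12 to 27 at E40, 158 to 188 at E50, and 188, 7 and 17 at E60. The log2 fold change was −0.53 ± 0.45 from E40 to E50 (adjusted p = 0.344), −0.44 ± 0.45 from E50 to E60 (adjusted p = 0.457) and −0.97 ± 0.45 from E40 to E60 (adjusted p = 0.291).

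After median-ratio scaling EDARADD was at 10.6, 5.64 and 8.63 scaled FPKM at E40, at 3.23, 3.62 and 3.61 at E50, and at 3.89, 4.33 and 4.97 at E60. All 3 E40 libraries then lay above the other 6, and the E60 libraries lay between the stages. The 4 deep libraries, at 3.89 or less, also all lay below the 5 shallow ones, at 4.33 or more. EDARADD fell from E40 to E50 on this scale by 1.18 ± 0.31 on the log2 scale (limma, adjusted p = 0.0228), and it was the 1 of 6 genes past the limits there, against 37.1% of all genes, 12.2% higher and 24.9% lower. In limma-voom on the recovered reads, which models the depth of each library, it fell by 1.24 ± 0.25 (adjusted p = 0.0209), against 26.7% of all genes past the limits. In the 8 libraries without E60 library 1, TRAF6 was past the limits and higher, and EDARADD past the limits and lower, both after scaling (1.66 ± 0.38, adjusted p = 0.00638, and −1.16 ± 0.28, adjusted p = 0.00771) and in limma-voom (1.49 ± 0.41, adjusted p = 0.00472, and −1.23 ± 0.29, adjusted p = 0.00131), 2 of 6 against 43.7% and 50.4% of all genes. So the calls on EDAR, EDARADD and TRAF6 depended on the scaling, and those on EDAR and TRAF6 on the libraries in the fit as well.

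TRAF6, the ubiquitin ligase that joins the receptor complex to the kinase MAP3K7, stood at 1.10, 3.44 and 3.12 FPKM at E40, at 11.7, 12.4 and 10.8 FPKM at E50 and at 11.1, 1.12 and 1.76 FPKM at E60. The 4 deep libraries were all at 10.8 FPKM or more and the 5 shallow ones at 3.44 FPKM or less, whatever the stage. In the shallow libraries TRAF6 rested on 2, 7, 8, 3 and 6 reads, and the values of E40 library 1 and E60 library 2 were at or under the floor of 3 reads, with 95% Poisson intervals of 0.133 to 3.98 and 0.232 to 3.28 FPKM. These intervals cover counting error only. Between E40 and E50 the log2 fold change was 2.29 ± 0.81 (limma, adjusted p = 0.0489), and the call was lost, with adjusted p between 0.0594 and 0.154, when any E40 or E50 library or E60 library 3 was left out.

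Between E50 and E60 TRAF6 had a log2 fold change of −1.99 ± 0.81 (adjusted p = 0.164), and −2.96 ± 0.49 (adjusted p = 0.00111) without E60 library 1. Within the 4 deep libraries it was −0.07, from 11.6 FPKM on average at E50 to 11.1 FPKM in E60 library 1. Within the 5 shallow libraries the difference from E40 to E60 was −0.67 ± 0.68 (adjusted p = 0.609). The deep fit has 1 library at E60, which is assumed to vary like the E50 libraries, and the shallow one rests on 2 to 8 reads per library, so neither limits a change with the stage closely.

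NFKBIA, the inhibitor IκBα, itself a target of NF-κB, was the highest of the 6 genes at each stage. It stood at 20.3, 22.1 and 19.2 FPKM at E40, at 25.1, 20.5 and 26.6 FPKM at E50 and at 22.9, 5.36 and 21.6 FPKM at E60. All libraries but E60 library 2 lay between 19.2 and 26.6 FPKM, and that library held 7 reads of the gene, with an interval of 2.16 to 11.0 FPKM. The log2 fold changes were 0.22 ± 0.53 from E40 to E50 (adjusted p = 0.736), −0.78 ± 0.53 from E50 to E60 (adjusted p = 0.276) and −0.56 ± 0.53 from E40 to E60 (adjusted p = 0.59). Without E60 library 2 the last of these was 0.12.

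FPKM is per length, so levels can be set side by side within a stage. At E40, EDARADD (7.43 ± 2.13 FPKM), TNFRSF19 (7.06 ± 0.375) and EDAR (5.87 ± 2.18) followed NFKBIA (20.5 ± 1.49) and overlapped with each other, and EDA and TRAF6 (2.56 ± 1.27) came last and overlapped as well. At E50, EDAR, TRAF6 (11.6 ± 0.783 FPKM) and TNFRSF19 overlapped, EDA lay below them, and EDARADD (4.96 ± 0.262 FPKM) lay below EDA in every library. At E60 only NFKBIA stood above the others on average, at 16.6 ± 9.77 FPKM, and its range overlapped with theirs.

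From E50 to E60, 0 of 6 genes were past the limits of limma over all 9 libraries, against 0.0714% of all genes, although 4 of the 6, EDA, EDAR, TRAF6 and TNFRSF19, had an unadjusted p under 0.05, as did 30.2% of all genes. Limma-voom gave 0 of 6 as well, against 1.6%. Without E60 library 1, EDA, EDAR and TRAF6 were past the limits and lower at E60, 3 of 6 against 39.1% of all genes lower and 59.1% in either direction. Stage and set cannot be told apart in that fit between E50 and E60. From E40 to E60 0 of 6 were past the limits, against 1.8% of all genes and with no gene of the 6 at an unadjusted p under 0.05, against 17.9% of all. In limma-voom it was 0 of 6 too, against 19.4% of all genes, with EDARADD at −0.98 ± 0.28 and an adjusted p of 0.0434, short of the limit on fold change. Without E60 library 1, EDA was past the limits, 1 of 6 against 6.06%, but not after scaling of those 8 libraries (limma, adjusted p = 0.117).

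**Figure D2:**
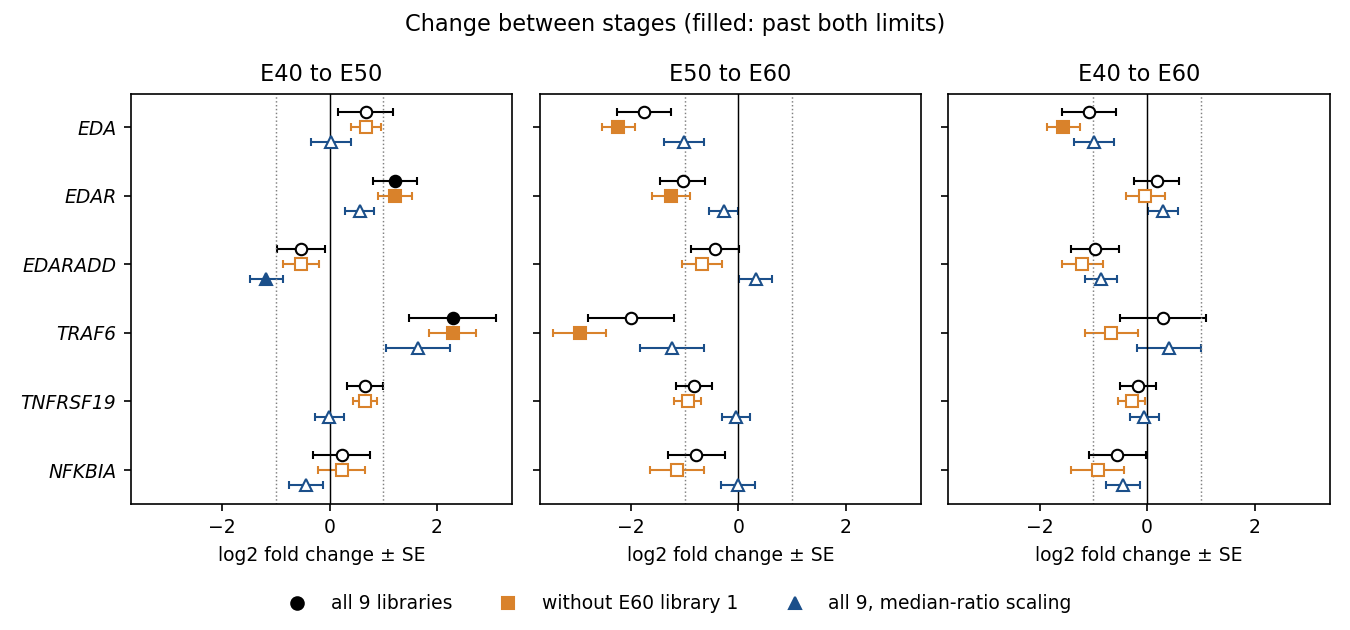
Log2 fold change (± SE) of each gene between stages over all 9 libraries (circles), without E60 library 1 (squares) and over all 9 after median-ratio scaling (triangles), with dotted lines at the limits on fold change and filled symbols for values past both limits. EDAR and TRAF6 were past the limits from E40 to E50 as deposited, at 1.22 and 2.29, and EDARADD after scaling, at −1.18.

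As deposited, 4 of 6 genes, EDA, EDAR, TRAF6 and TNFRSF19, were higher in every E50 library than in every E40 library, against 45.2% of all genes, and 0 of 6 were lower, against 27.8%. Between E50 and E60, 3 of 6, EDA, EDAR and TNFRSF19, were lower in every library, against 21.6% of all genes, and 0 of 6 were higher, against 5.18%. From E40 to E60 all 6 overlapped, as against 3.89% of all genes higher and 19% lower without overlap. After scaling, EDAR and TRAF6 were higher and EDARADD and NFKBIA lower at E50 than at E40 without overlap, against 29.5% of all genes higher and 36% lower. On that scale EDA was lower and EDARADD higher in every E60 than in every E50 library, against 8.76% lower and 12.2% higher, and both were lower in every E60 than in every E40 library, against 10.8%.

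Ratios of 2 genes within a library do not depend on how libraries are scaled. These ratios were examined after the values had been seen. The ratio of EDAR to EDARADD, receptor to adaptor, was 0.429, 1.22 and 0.891 at E40, 3.15, 2.47 and 2.40 at E50 and 1.69, 2.09 and 1.52 at E60. The E50 libraries were highest, the E40 libraries lowest and the 3 E60 libraries, deep and shallow alike, lay between them without overlap. Of the 15 ratios among the 6 genes, it was the 1 in which no pair of stages overlapped. The exact permutation test over 1680 arrangements of the libraries gave p = 0.00357, the smallest that this design allows, and 0.0536 after Benjamini-Hochberg adjustment over 15 ratios, which missed 0.05.

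The ratio of EDA to EDAR, ligand to receptor, was 0.880, 0.746 and 0.396 at E40, 0.392, 0.476 and 0.447 at E50, and 0.379, 0.249 and 0.176 at E60. The E60 libraries lay below all others, and E40 and E50 overlapped (exact permutation p = 0.0286, 0.143 adjusted over 15 ratios). EDA to EDARADD stood at 0.378, 0.907 and 0.353 at E40, at 1.24, 1.17 and 1.07 at E50, and at 0.639, 0.518 and 0.267 at E60, with E50 above both other stages (exact permutation p = 0.0786, 0.168 adjusted). TRAF6 to NFKBIA was 0.0543 to 0.163 at E40, 0.406 to 0.603 at E50, and 0.483, 0.209 and 0.0814 at E60, where the deep library lay in the range of E50 (exact permutation p = 0.107, 0.182 adjusted).

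**Figure D3:**
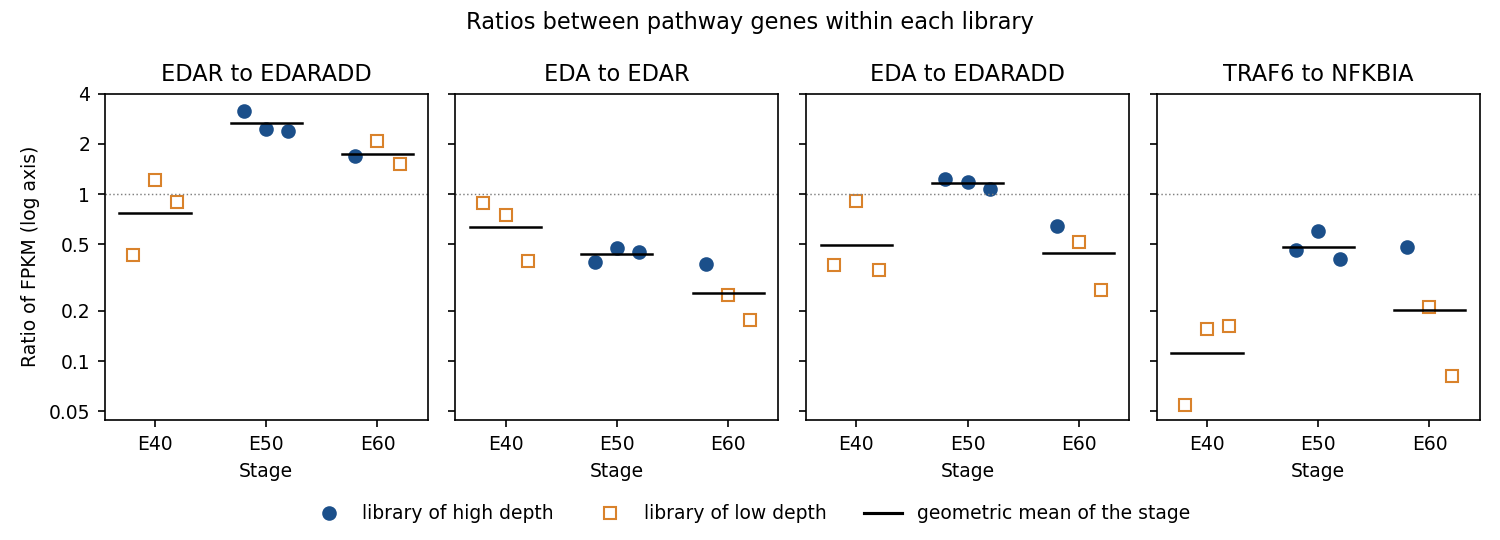
Ratio of FPKM values (log axis) within each library for 4 pairs of genes by stage, with filled circles for deep and open squares for shallow libraries and lines for the geometric mean of the stage. EDAR to EDARADD was 0.429 to 1.22 at E40, 2.40 to 3.15 at E50 and 1.52 to 2.09 at E60.

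Since EDAR is an epithelial receptor, the genes were also set against the geometric mean of the 10 tested dental epithelium markers of the same library. These markers did not move together. From E40 to E50 the mean of KRT15 fell from 638 to 80.4 FPKM, while that of EPCAM rose from 17.6 to 59.9 FPKM. The geometric mean is therefore no direct measure of the amount of epithelium. EDAR per unit of that mean was 0.0738, 0.0929 and 0.103 at E40, 0.222, 0.213 and 0.175 at E50, and 0.132, 0.250 and 0.124 at E60. The E40 libraries lay below all others (exact permutation p = 0.0286, 0.129 adjusted over the 6 genes). EDA on this scale was 0.0649, 0.0693 and 0.0407 at E40, 0.0872, 0.101 and 0.0783 at E50, and 0.0501, 0.0622 and 0.0219 at E60 (p = 0.0679, 0.136 adjusted, by the same permutation). NFKBIA, at 0.248 to 0.420, overlapped between all stages (exact permutation p = 0.782).

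At E60 each set of libraries holds libraries of its own, so E60 can be set against E50 within the deep set and against E40 within the shallow one. EDA lay below the earlier stage in both: E60 library 1 at 3.26 FPKM against 5.60 to 5.83 FPKM at E50, and E60 libraries 2 and 3 at 1.15 and 1.13 FPKM against 3.15 to 4.53 FPKM at E40. TNFRSF19 did as well, which made 2 of 6 genes, against 12.4% of all genes, and 0 of 6 lay above the earlier stage in both sets, against 3.29%. After scaling EDA was the 1 gene of the 6 below in both sets, against 6.16% of all genes, and 0 of 6 lay above, against 8.88%. EDA thus lay below with and without scaling, against 5.81%.

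The scaled log2 differences at E60 in the deep and the shallow set were −0.68 and −1.15 for EDA, −0.49 and 0.40 for EDAR, and −0.45 and 0.15 for TNFRSF19. For EDARADD they were 0.16 and −0.78, for TRAF6 0.05 and −0.25, and for NFKBIA 0.05 and −0.48. The medians over all genes were 0.02 and −0.03. In limma within the deep set, the log2 fold change of EDA from E50 to E60 was −0.80 as deposited and −0.73 with scaling within the set. The deep set holds 1 E60 library, whose spread cannot be measured, so no p-value is given for it. Within the shallow set the value of EDA from E40 to E60 was −1.56 ± 0.50 (limma, adjusted p = 0.172) as deposited. With scaling within that set it was −1.11 ± 0.46 (limma, adjusted p = 0.396). In the shallow fit as deposited 1.3% of all genes were past the limits, and 0 of the 6.

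**Figure D4:**
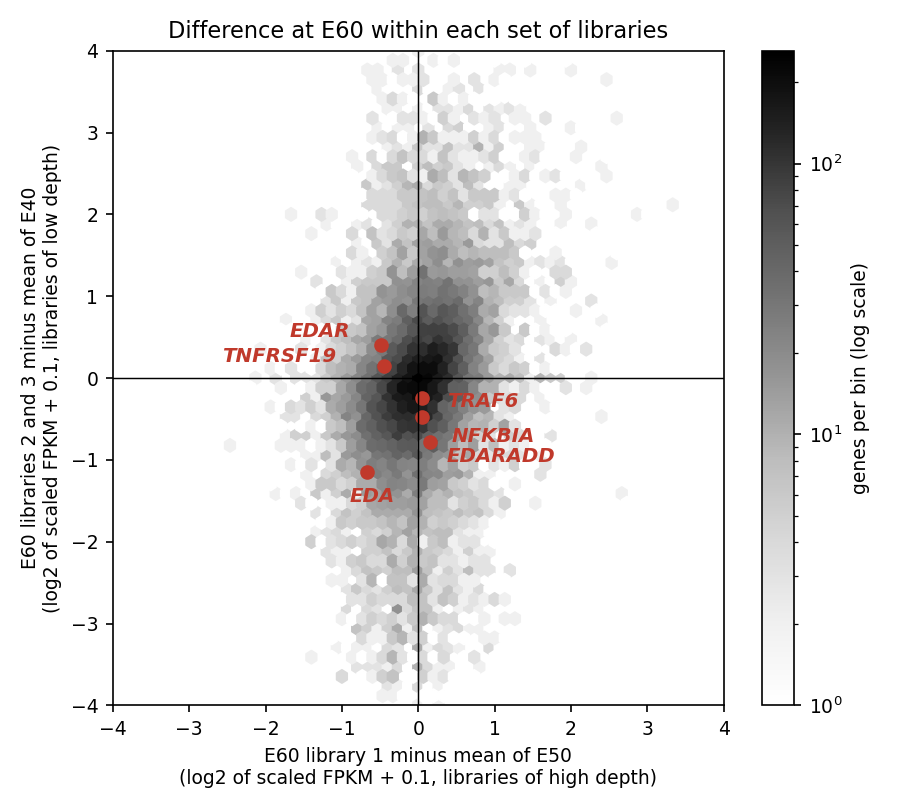
Scaled log2 difference of each tested gene between E60 library 1 and the E50 mean (x axis, deep libraries) and between E60 libraries 2 and 3 and the E40 mean (y axis, shallow libraries), in grey bins, with the 6 genes in red and genes beyond 4 on either axis not drawn. EDA lay at −0.68 and −1.15, below 0 on both axes, and EDAR and TNFRSF19 were below 0 on the x axis only.

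Around the members, genes of the pathway were described by 6 lists. From E40 to E50, 18 of their 65 tested genes were past the limits in limma. Over all genes it was 38.6%, 16.8% higher and 21.8% lower. The IKK and NF-κB core list had 17 genes, 16 tested, and from E40 to E50 3 were past the limits, all higher, with a median log2 fold change of 0.71 against 0.55 over all genes. The 3 were MAP3K7 (TAK1, the kinase downstream of TRAF6), at 10.5 to 14.6 FPKM at E40 and 37.3 to 51.4 at E50, its partner TAB2, at 3.59 to 7.13 and 15.1 to 19.2 FPKM, and RELA, the activating NF-κB subunit, at 1.29 to 5.02 and 7.28 to 9.23 FPKM. TAB2, which binds the ubiquitin chains that TRAF6 makes, was at 17.2 FPKM in deep E60 library 1 and at 2.77 and 3.70 FPKM in the shallow ones, and RELA at 7.30, 4.37 and 4.12 FPKM. The kinase gene CHUK (IKKα), at 11.2 to 18.1 FPKM at E40 and 27.6 to 38.2 at E50, did not pass (log2 fold change 1.23 ± 0.49, adjusted p = 0.0717), nor did IKBKB and IKBKG, the other subunits of the IKK complex, at −0.26 (adjusted p = 0.539) and 0.05 (adjusted p = 0.936). As deposited, MAP3K7, TAB2 and RELA were higher in every deep library than in every shallow one. After scaling MAP3K7 was the 1 of 16 past the limits, against 37.1% of all genes. RELB was listed at 0 in every library.

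The list of NF-κB inhibitors and feedback genes had 10 tested genes. From E40 to E50 2 were higher and 1 lower past the limits, against 16.8% and 21.8% of all genes, with a median of 1.18. BIRC2 and BIRC3, ubiquitin ligases that hold back the non-canonical branch of NF-κB, were at 6.37 to 9.10 and 2.81 to 4.30 FPKM at E40 and at 30.6 to 40.0 and 15.7 to 21.7 FPKM at E50. Both again separated the sets at E60, at 46.6, 7.10 and 10.9 FPKM for BIRC2 and 24.1, 2.80 and 3.81 FPKM for BIRC3. BCL3, an atypical IκB protein, stood at 9.68 to 13.1 FPKM at E40 and at 0.540 to 0.842 FPKM at E50 (log2 fold change −3.90 ± 0.70, limma, adjusted p = 0.0124). At E60 it was at 0.412, 2.41 and 3.24 FPKM, below the earlier stage of its own set each time. It was lower in every deep library than in every shallow one. TNFAIP3 (A20), an NF-κB target that ends the signal, was at 1.15 to 2.28 FPKM at E40 and 2.23 to 2.53 FPKM at E50 and did not pass (adjusted p = 0.535).

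Genes known to respond to ectodysplasin in hair, feather or tooth placodes numbered 19 in the table, of which 15 were tested. From E40 to E50 3 rose and 3 fell past the limits, against 16.8% and 21.8% of all genes, with a median of 1.0. Of the 3 that fell, CXCL11 and CCL20 were at the floor of 3 reads in every library. SHH, the hedgehog ligand of the enamel knot, was at 54.6, 43.2 and 73.1 FPKM at E40, at 168, 141 and 180 FPKM at E50 and at 171, 110 and 220 FPKM at E60. The E50 and E60 libraries of both sets lay above those of E40, with a log2 fold change of 1.54 ± 0.37 from E40 to E50 (adjusted p = 0.016) and 1.52 ± 0.37 from E40 to E60 (adjusted p = 0.0835). DKK1, a secreted Wnt inhibitor, was at 5.32, 10.7 and 14.1 FPKM at E40, at 188, 215 and 227 FPKM at E50 and at 166, 51.5 and 85.8 FPKM at E60. From E40 to E50 it rose by a log2 fold change of 4.48 ± 0.50 (limma, adjusted p = 0.00397). From E40 to E60 it rose by 3.26 ± 0.50 (limma, adjusted p = 0.0149). In both sets its E60 libraries lay above every E40 library, and every deep library lay above every shallow one.

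PTHLH, the parathyroid hormone-related peptide, was at 62.8 to 82.2 FPKM at E40, at 206 to 257 FPKM at E50 and at 156, 52.1 and 99.995 FPKM at E60. It was higher in every deep library than in every shallow one, with a log2 fold change of 1.59 ± 0.42 from E40 to E50 (limma, adjusted p = 0.0205). LTB, a TNF-family ligand, was at 14.4 to 23.2 FPKM at E40, at 1.69 to 2.55 FPKM at E50 and at 1.24, 16.4 and 11.3 FPKM at E60, low in all 4 deep libraries and high in the 5 shallow ones. CXCL11 and CCL20, the other 2 lower genes, had at most 3 reads in any library. They passed the filter only through shallow libraries, where 1 read is worth more FPKM, so their calls are not read as changes. WNT10B, a Wnt ligand of the enamel knot, did not pass over the 9 libraries but lay below the earlier stage of its own set at E60, at 4.38, 0.985 and 1.55 FPKM against 6.96 to 8.81 FPKM at E50 and 2.40 to 4.31 FPKM at E40. After scaling, DKK1 was the 1 higher gene of the list and 3 were lower, against 12.2% and 24.9% of all genes. DKK4 and MADCAM1 were listed at 0.

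Factors upstream of EDA or EDAR, and the proteases that shed the ligand, had 9 tested genes. Of these, 2 were past the limits from E40 to E50, both higher, against 16.8% of all genes higher, with a median of 0.37. CTNNB1 (β-catenin) was at 149 to 222 FPKM at E40, at 565 to 636 FPKM at E50, and at 747, 122 and 245 FPKM at E60, high in the deep set. DLX3, an ectodermal homeobox gene, was at 1.78 to 3.58 FPKM at E40 and 16.4 to 22.2 FPKM at E50. At 27.3, 7.26 and 12.3 FPKM at E60 it stayed above E40 in both sets, and every deep library lay above every shallow one. INHBA, the subunit of activin A, a mesenchymal signal known to induce Edar in tooth explants, was at 30.4, 27.1 and 30.3 FPKM at E40, at 17.1, 15.5 and 15.6 FPKM at E50 and at 9.29, 9.81 and 11.1 FPKM at E60.

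As deposited, INHBA was lower at each step with no overlap between stages. After scaling it was at 29.3 to 38.3 scaled FPKM at E40, 10.7 to 11.7 at E50 and 7.10, 19.2 and 13.1 at E60, so that the E60 libraries lay on both sides of E50, with a log2 fold change of 0.10 from E50 to E60 (adjusted p = 0.863) and −1.42 from E40 to E60 (adjusted p = 0.0623). As deposited the log2 fold change from E40 to E60 was −1.53 ± 0.28, with an adjusted p of 0.0324, the 1 call of the list in that comparison, and −0.86 ± 0.28 from E40 to E50 with an adjusted p of 0.0407, short of the limit on fold change. Over 23 alternative settings the value from E40 to E60 stayed between −1.73 and −1.0, and it was no longer past the limits in 14 of them. LEF1, a Wnt-pathway factor needed for Eda expression in skin and teeth, was at 31.7 to 34.6 FPKM at E40, at 36.0 to 37.2 FPKM at E50 and at 19.0, 5.43 and 11.0 FPKM at E60. LEF1, INHBA and ETV4 lay below the earlier stage at E60 in both sets with and without scaling, 3 of 9 genes of the list against 5.81% of all genes. The same held for 3 of 10 dental mesenchyme markers and 3 of 9 bone and cartilage markers. For LEF1 the log2 fold change from E40 to E60 was −1.66 ± 0.43 (adjusted p = 0.108) as deposited and −1.55 (adjusted p = 0.0039) after scaling. FURIN, a protease of the ligand's cleavage type, was at 6.04 to 14.2 FPKM throughout and did not pass in any comparison.

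Of the other TNF receptors 11 were tested. From E40 to E50 2 were past the limits, both lower, against 21.8% of all genes lower, with a median of 0.34. CD27, a receptor of lymphocytes, was at 12.2 to 16.5 FPKM at E40, at 0.102 to 0.521 FPKM at E50 and at 0.0526, 13.8 and 11.3 FPKM at E60, again split by the set of libraries. RELT was at 6.19 to 7.34 FPKM at E40, at 1.22 to 1.65 FPKM at E50 and at 14.7, 6.10 and 17.4 FPKM at E60. Of the other TNF ligands 6 were tested, with TNFSF4 and TNFSF10 higher and LTB, which stands in 2 lists, lower. The shares over all genes were 16.8% and 21.8%. TNFSF4 had no read in the E40 libraries and at most 40 in any library, at 0.773 to 1.51 FPKM at E50. It passed the filter through 2 deep libraries and was not tested without E60 library 1, and no fold is given. TNFSF10 was at 0 to 0.679 FPKM at E40 and at 2.68 to 3.34 FPKM at E50. At E60 it was at 5.14, 1.55 and 0.812 FPKM, so every deep library lay above every shallow one. In the 6 lists, with 65 tested genes, limma put 0 past the limits from E50 to E60 over all 9 libraries, with 15 at an unadjusted p under 0.05 (30.2% over all genes), and limma-voom put 1, RELT. DKK1 and INHBA were the 2 that passed in limma from E40 to E60, against 1.8% of all genes. Limma-voom put 12 past the limits there, against 19.4% of all genes. The 12 were BCL3, CCL20, CD27, CXCL11, DKK1, DLX3, ETV4, FGF4, INHBA, LEF1, MAP3K7 and SHH. Among these, CCL20 and CXCL11 had at most 3 reads in any library.

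**Figure D5:**
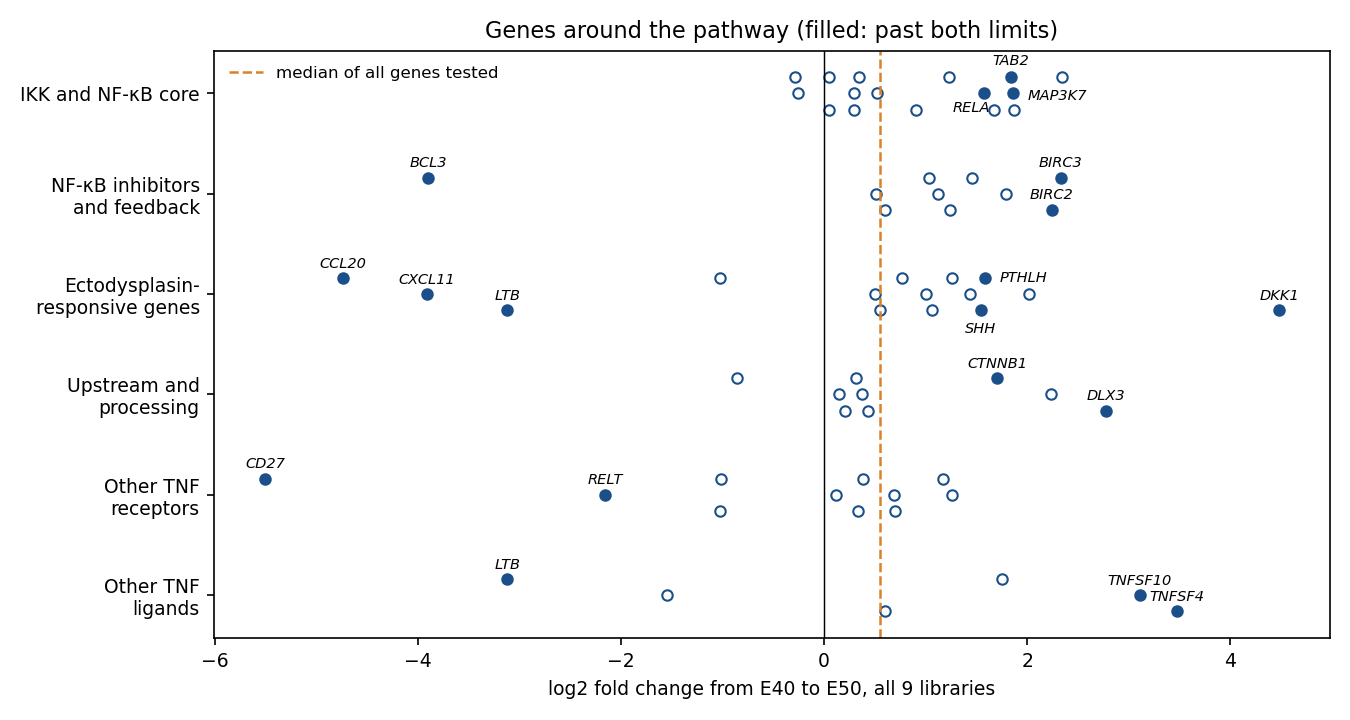
Log2 fold change from E40 to E50 over all 9 libraries for each tested gene of the 6 lists, filled and named where past both limits, with a dashed line at the median of all genes, 0.55. Most open points lie above 0, and the lower genes named are BCL3, LTB, CXCL11, CCL20, CD27 and RELT. CXCL11 and CCL20 had at most 3 reads in any library.

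Between the members, the Pearson r of scaled log2 values over the 9 libraries was 0.55 for EDAR and TRAF6 and −0.77 both for EDAR and EDARADD and for EDARADD and TRAF6. For EDA and EDAR it was −0.05. The genes whose pattern over the 9 libraries was most like that of EDA were METTL13 (r = 0.967), STX1A (r = 0.958) and ZFP42 (r = 0.951). METTL13 was at 3.46 to 6.53 FPKM at E40, 6.72 to 7.84 FPKM at E50 and at 3.81, 1.38 and 1.73 FPKM at E60, low in the 2 shallow E60 libraries as EDA was. For EDAR they were UBL7 (r = 0.943), PEX5 (r = 0.936) and CORT (r = 0.928), and for EDARADD PPAPDC2 (r = 0.964), GIT1 (r = 0.957) and UPK3B (r = 0.942). These values describe libraries that share a depth and a stage, and they were picked as the highest over all named genes.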

How the data were processed

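RNA of Dm3 germs was sequenced in 9 libraries. The submitters' processing notes name TopHat and the build Sscrofa10.2. The authors deposited FPKM values per gene, and no scaling of libraries beyond this unit is stated. All columns were used. The stage came from the deposited label of each sample. The gene symbols are those of the table, and no positions were used here.

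The 19618 genes that reached 1 FPKM in 2 or more libraries were compared on the log2(FPKM + 0.1) scale in limma (version 3.58.1, R version 4.3.3). The fit held all 9 libraries, 1 coefficient per stage and a trend of the variance with the mean, and p-values were adjusted by Benjamini-Hochberg over all tested genes. Fold changes are on that scale, which understates those of low genes. A gene was past the limits when its adjusted p was below 0.05 and its log2 change was 1 or more, up or down.

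FPKM values of a gene were whole multiples of what 1 read is worth. Whole reads were recovered, within 0.001 read, for 27090 of 28963 rows above 0, and the other 1873 were above 0 in 1 library only. For a 1 kb gene 1 read was worth 0.568 to 1.07 FPKM in the shallow libraries and 0.06 to 0.0696 FPKM in the deep ones. The floor was set at 3 reads. The filter is on FPKM, so genes at the floor, such as CXCL11, could pass it through shallow libraries and count in the shares over all genes. Poisson intervals (95%) cover counting error only. The scripts were tested on simulated data, in which the share of false calls between E40 and E50 exceeded the nominal rate at these unequal depths.

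Members and gene lists were chosen with earlier results of these data known. All members were named, with up to 4 called genes and up to 4 of the highest genes of each list, and for EDA, EDAR and EDARADD the 3 most alike genes, leaving out LOC symbols. Other genes named were chosen after their values were seen. One epithelial marker was left out of its list and is not reported here. Ratios, values per epithelial marker mean and the comparisons within a set of libraries were added after values were seen, and the first 2 were tested by exact permutation. Alternatives were other pseudocounts, filters and scaling, a replicate block, fits of 2 stages, no trend, limma-voom, the library set as a further term and leaving out each library. Tables, permutations and plots were made in Python 3.11.15 with scipy 1.17.1, pandas 2.3.3, matplotlib 3.10.9 and numpy 2.4.6.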

Additional observations from a re-analysis of the deposited data

How the results depend on the processing

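From E40 to E50, 7580 genes were past the limits, and 50 with the library set as a further term. In that fit the effect of the set is estimated at E60 alone, from 1 deep and 2 shallow libraries. Leaving out 1 library gave 58 to 10650, with 58 without E50 replicate 2 or 3. Of the 6 members 2, EDAR and TRAF6, were past the limits. The number was 1 at a pseudocount of 0.01 (EDAR, higher), and 1 with median-ratio scaling or with limma-voom (EDARADD, lower). It was 0 with no filter on low values, with no trend or with the library set as a term. Leaving out 1 library gave 0 to 2.

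From E50 to E60 the 14 genes past the limits became 27 at a pseudocount of 1, 81 with the scaling, 6 with only the 2 stages, 314 with limma-voom, 832 with only the 4 deep libraries and 780 with these scaled. Leaving out 1 library gave 4 to 11529, the highest without E60 replicate 1. In settings added after the data were seen, the 8 libraries without it gave 7448 with the scaling and 8764 with limma-voom. Of the members 0 were past the limits, 2 in both of these settings, and 0 to 3 when 1 library was left out.

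From E40 to E60 the 354 genes became 696 and 221 at pseudocounts of 1 and 0.01, 720 with the scaling, 27 with only the 2 stages, 3815 with limma-voom, 1155 with the library set as a term, 955 in 8 scaled libraries and 168 in the 5 shallow libraries scaled. Leaving out 1 library gave 128 to 1181. Of the members 0 were past the limits, 1 (EDA) with the library set as a term, and 0 to 1 when 1 library was left out.

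With the replicate number as a block, 0 members were past the limits in each comparison, with adjusted p of 0.0873 for EDAR and 0.0877 for TRAF6 from E40 to E50, and the genes past the limits were 5104 from E40 to E50, 4 from E50 to E60 and 82 from E40 to E60. Same-numbered libraries did not deviate together (r of deviations −0.515 to 0.109 over 9 pairs of libraries), and not every library correlated best with its own number. At E60 the deviations also hold the split between deep and shallow libraries. This check therefore cannot show whether the numbers pair the samples.

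Changes of direction occurred with the library set as a term, with scaling, with limma-voom and in subsets of the libraries, and for values not near 0 as well. The library set as a term gave, from E40 to E50, log2 fold changes of −0.77 for EDA, −0.60 for TRAF6, −0.85 for NFKBIA, −0.068 for MAP3K7, −0.55 for TAB2, −0.33 for CHUK, −0.15 for BIRC2, −0.52 for BIRC3, 0.25 for LTB, −0.40 for CTNNB1 and 0.87 for CD27. From E50 to E60 it gave 0.040 for EDARADD, and from E40 to E60 −0.037 for EDAR and −0.67 for TRAF6. The values of this fit from E40 to E50 rest on E60 library 1 set against E60 libraries 2 and 3. Their SE was 0.49 for EDA, 0.78 for TRAF6 and 0.80 for NFKBIA, so they do not settle a direction. Median-ratio scaling gave −0.0014 for TNFRSF19 and −0.44 for NFKBIA from E40 to E50, and 0.32 for EDARADD from E50 to E60. Limma-voom gave −0.012, −0.44 and 0.26 for the same 3, and 0.11 for NFKBIA from E50 to E60. In the 8 libraries, scaling and limma-voom gave −0.42 and −0.42 for NFKBIA from E40 to E50. From E50 to E60 they gave 0.37 and 0.48 for EDARADD and 0.12 and 0.10 for TNFRSF19, and limma-voom 0.17 for NFKBIA. From E40 to E60 they gave −0.26 and −0.31 for TRAF6 and 0.14 and 0.11 for TNFRSF19. The 4 deep libraries gave 0.040, and 0.11 scaled, for EDARADD and 0.0027 scaled for NFKBIA. The 5 shallow libraries gave −0.037 for EDAR, −0.67, and −0.21 scaled, for TRAF6 and 0.18 scaled for TNFRSF19. Leaving out 1 library moved the value from E40 to E60 between −0.13 (without E40 replicate 1) and 0.43 for EDAR, between −0.67 (without E60 replicate 1) and 0.93 for TRAF6, and between −0.92 and 0.12 (without E60 replicate 2) for NFKBIA. The causes were not tested. Depth limits what the shallow libraries show, where the members other than TNFRSF19 held 2 to 36 reads.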
